A study of Mus musculus with 8 samples.

Results

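Interferon response genes are described here across activated mouse CD8+ T cells of 2 genotypes. The 45 genes were chosen by name as a fixed list and were found by symbol among the 24976 gene symbols of the count table. They form 34 genes of the antiviral programme and 11 GTPases that interferon gamma induces. The minimum count used for testing was passed by 36 of them, 25 antiviral genes and all 11 GTPases, among 12742 tested genes in all. The study's naive CD8+ T cells came from mice with floxed Nr4a1 and Nr4a2 alleles and Cre recombinase under Cd8 control (labelled dKO), or from wild-type littermates (WT). The proteins of both genes are nuclear receptors made soon after antigen stimulation, and the Cre acts in cells that use the Cd8 control region. All cells of both genotypes were cultured with 2 µg/ml of antibody to CD3, 1 µg/ml of antibody to CD28 and 10 ng/ml of IL-2, and none is labelled as given an interferon. RNA was sequenced in bulk after 24 or 48 h, giving 4 groups of 2 libraries, and the labels do not say whether replicates came from separate animals.

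Cells that sense virus RNA or DNA secrete type I interferons, which signal through a factor containing STAT2 and IRF9 to a response element in the promoters of antiviral genes. Interferon gamma, which activated T cells themselves secrete, acts on gamma activated sites and induces IRF1, which binds the first kind of element. Its targets include the guanylate binding proteins (GBP) and the immunity related GTPases (IRG), which attack the membranes around parasites and bacteria inside cells.

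The promoter stretches printed next hold the 2 kinds of element, for members whose values the results turn on and for the Tgtp pair. RefSeq windows of 300 bases, from 250 before to 50 after the start of the gene (GRCm38), were matched to 32 of the 45 members by symbol. Each line runs 5′ to 3′ on the gene's strand, and capitals mark the matched motif. In the first 8, capitals mark GAAANNGAAA on either strand, the core of the interferon stimulated response element.
Gbp2 (chr3:142620589-142620628, + strand): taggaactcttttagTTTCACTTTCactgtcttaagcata
Igtp (chr11:58199507-58199546, + strand): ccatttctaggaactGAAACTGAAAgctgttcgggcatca
Irgm1 (chr11:48871426-48871465, - strand): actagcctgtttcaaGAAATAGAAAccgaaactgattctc
Tgtp1 (chr11:48992299-48992338, - strand): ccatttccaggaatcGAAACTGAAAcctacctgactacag
Tgtp2 (chr11:49064258-49064297, - strand): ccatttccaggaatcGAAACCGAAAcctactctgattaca
Ifit3 (chr19:34583392-34583431, + strand): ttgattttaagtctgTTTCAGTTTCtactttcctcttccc
Isg15 (chr4:156200866-156200905, - strand): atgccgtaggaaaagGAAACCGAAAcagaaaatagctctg
Rsad2 (chr12:26456548-26456587, - strand): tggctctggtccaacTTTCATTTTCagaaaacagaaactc
In the next 2, capitals mark TTCNNNGAA, the gamma activated site.
Irf1 (chr11:53769909-53769947, + strand): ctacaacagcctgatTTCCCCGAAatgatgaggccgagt
Samhd1 (chr2:157135308-157135346, - strand): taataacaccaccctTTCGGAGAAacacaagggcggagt

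The response element core was in the window of 8 of 8 matched GTPase genes (100%) and of 11 of 24 matched antiviral genes (45.8%), against 3.99% of the 27025 genes in the table. The gamma activated site was in 5 of 8 (62.5%) and 7 of 24 (29.2%), against 9.55% of all genes. Both strands were searched, overlapping matches of the 2 motifs were each counted, and a match is a description of letters, not a measured binding site. In the window of Igtp the gamma activated site ends just upstream of the element shown, and the same arrangement is present in Tgtp1 and Tgtp2. Dtx3l had neither motif in its window, and Ifih1 had the element core downstream of its start.

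**Figure D1:**
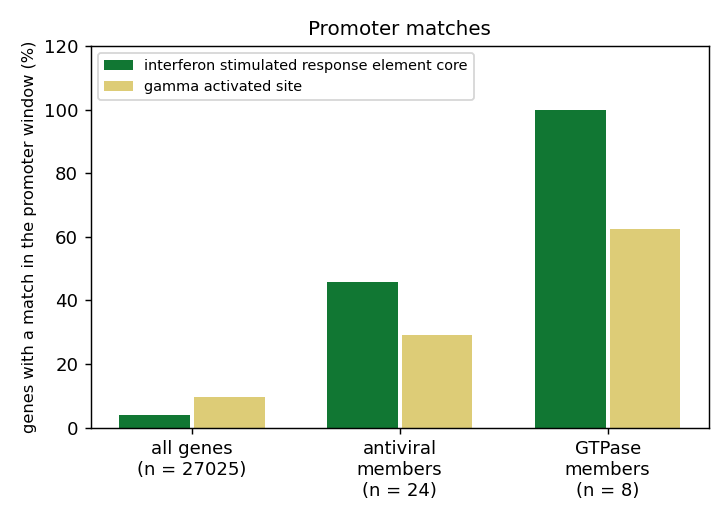
Share of genes (percent) with a match in a promoter window of 300 bases, for all genes of the RefSeq table, the matched antiviral members and the matched GTPase members. Green bars are the interferon stimulated response element core and yellow bars the gamma activated site; the GTPase bars reach 100% and 62.5%, the bars of all genes 3.99% and 9.55%.

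Facts of the whole series touch these comparisons. Total counts were 5000952 to 21686236 per library. Levels are in counts per 1000000 counts (CPM), scaled by TMM, and 3 counts, the upper limit that a count of 0 allows, are 0.158 to 0.558 CPM per library, for counting error only. Nr4a2 was higher in the libraries labelled dKO at both times, at 143 and 136 CPM against 59.9 and 49.2 CPM in WT at 24 h and at 75.5 and 77.3 against 24.6 and 33.2 CPM at 48 h. Nr4a1 overlapped at 24 h (533 and 506 against 526 and 276 CPM) and lay below WT at 48 h (635 and 669 against 881 and 779 CPM). The counts therefore do not show a loss of either gene, and directions are stated for the labels. Xist was at 387 to 818 CPM in WT libraries, against 0.656 to 1.67 CPM in those labelled dKO, and the summed Y-linked genes at 1.32 to 2.001 against 135 to 159 CPM, so genotype and sex of the mice cannot be told apart. Replicates correlated across genes with r = 0.965 in WT at 48 h, the lowest of the 4 groups, and 0.985 to 0.989 elsewhere. The sum of the muscle and testis genes Csrp3, Ropn1, Odf4 and Tnp2 was 17334 and 16664 CPM in WT at 48 h against 4590 to 7919 CPM in the other 6 libraries. Its part in the genotype values at 48 h was not tested. CD8 T cell markers summed to 1230 to 1961 CPM, B cell markers to 3.72 to 6.604 CPM and NK or gamma delta T cell markers to at most 0.298 CPM. The CD4 or regulatory T cell markers Cd4, Foxp3 and Cd40lg summed to 1.64 to 4.22 CPM, and Cd4 itself had at most 0.109 CPM. Plasmacytoid dendritic cell markers, a cell type known for type I interferon, summed to 6.51 to 9.98 CPM at 24 h, 9.74 and 12.7 CPM in WT at 48 h and 7.15 and 7.28 CPM in the libraries labelled dKO at 48 h. Most of that sum is Tcf4, and the defining marker Siglech was at most 0.513 CPM.

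Ifng, which encodes interferon gamma, rose at 24 h in the libraries labelled dKO, with 1210 and 1132 CPM against 477 and 434 CPM in WT. Its log2 fold change there was 1.36 (SE 0.203, edgeR adjusted p = 0.0188). At 48 h it stood at 619 and 683 against 489 and 347 CPM, which is 0.64 on the log2 scale and not called (SE 0.2, edgeR adjusted p = 0.0664). The groups did not overlap at either time, but leaving out a single 24 h library or either dKO 48 h library ended the 24 h call (adjusted p = 0.0884 to 0.331). Socs1, the feedback inhibitor of the receptor kinases, rose at 48 h from 50.4 and 43.2 CPM in WT to 74.4 and 68.9 CPM (0.62, SE 0.16, edgeR adjusted p = 0.0373). Leaving out any 1 library other than WT 48 h replicate 1 ended that call (adjusted p = 0.0518 to 0.202), as did a fit of the 48 h libraries alone (0.13) and a mean of at least 50 counts (0.0513). In bulk RNA, fewer cells that express a gene and less of its RNA per cell cannot be told apart.

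Of 40 other pathway genes looked for, 27 were tested. Besides Ifng, 0 passed at 24 h, when 0.432% of all genes were called. Called at 48 h were 2 higher and 1 lower of the 27, beside 3.19% and 8.04% of all genes. Their number was near the background. At 48 h Socs1 and Ifnar2, a chain of the type I receptor (0.55, SE 0.153, edgeR adjusted p = 0.0479), rose and Ifnk, a keratinocyte interferon, fell (-1.21, SE 0.184, adjusted p = 0.0138). Ifnk was at 172 and 191 CPM in WT at 48 h against 53.2 to 81.7 CPM in the other 6 libraries, so its high libraries are those with the high sum of muscle and testis genes, whose part in it was not tested. Ifnk lost its call without either dKO 48 h library (0.137 and 0.191). Ifnar2 lost it with no filter on low counts (0.0505), a mean of at least 50 counts (0.0613), DESeq2 (0.104), the replicate block (0.0637), a fit of the 48 h libraries alone (0.181) and without any 1 library other than WT 48 h replicate 1 (0.079 to 0.291). By symbol 3 of 14 interferon ligand genes were found and 2 tested, Ifng and Ifnk.

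The GTPases leaned lower in the libraries labelled dKO, at a size that few of them passed singly. At 24 h 9 of the 11 had a negative log2 fold change, with a median of -0.36 beside 0.0074 over all tested genes. In edgeR 0 of 11 were called, and an unadjusted p under 0.05 was reached by 6 on the lower side and 0 on the higher, beside 3.05% lower and 3.92% higher of all tested genes. DESeq2 called 0 as well. Of all genes edgeR called 0.432% in either direction at 24 h. At 48 h again 9 of 11 were negative and edgeR called 0, beside 11.2% of all genes. DESeq2 called 0 there too, beside 9.35% of all genes. At an unadjusted p under 0.05 in edgeR there were 3 lower at 48 h, beside 19.1% of all genes. The median at 48 h was -0.24 beside -0.027 over all genes, and with library size alone as the scaling -0.06 beside 0.15, with 7 of 11 negative. Over both times 11 of 11 had a negative value (10 of 11 with library size alone; median -0.21, beside -0.013 over all genes) and Gbp2 was the member called lower, beside 5.52% of all genes called lower and 2.28% called higher.

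Gbp2 encodes a guanylate binding protein that coats vacuoles of pathogens. It was at 165 and 138 CPM in WT at 24 h and at 102 and 124.9 CPM in the libraries labelled dKO. At 48 h it was at 84.1 and 93.8 against 60.3 and 63.4 CPM. The groups did not overlap at either time, and the log2 fold change averaged over the times was -0.47 (SE 0.115, edgeR adjusted p = 0.0353). That call was lost with library size alone (-0.39, adjusted p = 0.0594) and without WT 24 h replicate 1, either dKO 24 h replicate or either dKO 48 h replicate (adjusted p = 0.119 to 0.21). Without WT 48 h replicate 1 or 2, 5 and 6 of the 11 GTPases were called lower over both times, beside 22% and 7.61% of all genes in those fits.

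Irgm1 encodes a regulator that holds other IRG proteins in their inactive form. At 24 h it was at 91.6 and 82.7 CPM in WT and at 63.7 and 66.2 CPM in the libraries labelled dKO. At 48 h it was at 36.6 and 38.5 against 26.8 and 32.6 CPM. Both libraries labelled dKO lay below both WT libraries at each time, and the value over both times was -0.38 (SE 0.105, edgeR adjusted p = 0.0545). Igtp, an effector IRG whose gene model overlaps that of Irgm2 on the same strand, was at 179 and 158 against 128 and 135 CPM at 24 h and at 175 and 172 against 148 and 149 CPM at 48 h. Its value over both times was -0.29 (SE 0.1, edgeR adjusted p = 0.103), again with no overlap at either time. Both genes passed without WT 48 h replicate 1 (adjusted p = 0.00223 and 0.012) or replicate 2 (0.0257 and 0.037), and Irgm1 also with no filter on low counts (0.0495) and with a mean of at least 50 counts (0.0365).

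Gbp6 had the same pattern, with 59.02 and 49.05 CPM in WT against 36.9 and 41.3 CPM at 24 h, and 35.7 and 45.1 against 29.9 and 31.4 CPM at 48 h (-0.44 over both times, SE 0.12, edgeR adjusted p = 0.0541). It passed with no filter on low counts (adjusted p = 0.0193), with a mean of at least 50 counts (0.0458) and without WT 48 h replicate 1 or 2 (0.000537 and 0.0359). Its open reading frame is 98.4% identical to that of Gbp10, and counts could be split between them. Tgtp1 and Tgtp2, effector IRG genes with 99.7% identical reading frames, were below WT at 24 h in both libraries labelled dKO and overlapped WT at 48 h. Tgtp1 was at 96.5 and 87.4 against 60.4 and 68.2 CPM at 24 h and at 79.3 and 55.8 against 70.1 and 69.2 CPM at 48 h. The log2 fold changes of this pair were -0.52 and -0.42 at 24 h and 0.06 and 0.02 at 48 h. Iigp1, another effector IRG, was at -0.27 and -0.07. The remaining GBP genes Gbp3, Gbp4, Gbp5 and Gbp7 ranged from -0.22 to 0.17 at 24 h and from -0.40 to -0.17 at 48 h, and 0 of them was called between genotypes in the fit of 8 libraries. Without WT 48 h replicate 1, Gbp5 passed at 48 h (-0.56, edgeR adjusted p = 0.00642) and Gbp7 at 48 h (-0.47, 0.0221) and over both times (-0.30, 0.0347). That fit also called Gbp2, Gbp6 and Irgm1 lower at 48 h (0.00373 to 0.0338), so 5 of 11 GTPases passed there, beside 25.9% of all genes called lower. At 24 h Gbp6, Irgm1 and Tgtp1 passed without WT 48 h replicate 1 or 2 (adjusted p = 0.0124 to 0.0492), beside 1.02% and 1.04% of all genes called lower.

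Both libraries labelled dKO lay below both WT libraries for 7 of 11 GTPases at 24 h, beside 20.6% of all tested genes, and for 7 of 11 at 48 h, beside 28.6%. With library size alone 2 of 11 did so at 48 h (Gbp2 and Igtp), beside 17.3% of all genes, so that number was near the background. With that scaling 2 lay above at 48 h (Iigp1 and Tgtp1), beside 41.9%. In 4 genes the libraries labelled dKO lay below at both times (Gbp2, Gbp6, Igtp and Irgm1), beside 9.28% of all genes. This held in 5 with RLE scaling (beside 9.8%) and in 2 with library size alone (beside 6.83%). The reverse, above WT at both times, held for 0 of 11, beside 11.7%. Summed over the 11 genes the level was 923 and 806 CPM in WT against 629 and 726 CPM at 24 h, and 689 and 665 against 579 and 594 CPM at 48 h. The libraries labelled dKO had more Ifng and a lower GTPase sum at each time, but with library size alone the 48 h sums overlapped, at 574 and 582 CPM in WT against 559 and 578 CPM. Of 10 other GBP and IRG genes tested, 10 were negative over both times and 1 was called, the giant GTPase gene Gvin1 (-0.76, SE 0.17, edgeR adjusted p = 0.0288). Gvin1 lost that call without WT 24 h replicate 1, either dKO 24 h replicate or either dKO 48 h replicate (adjusted p = 0.12 to 0.162).

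**Figure D2:**
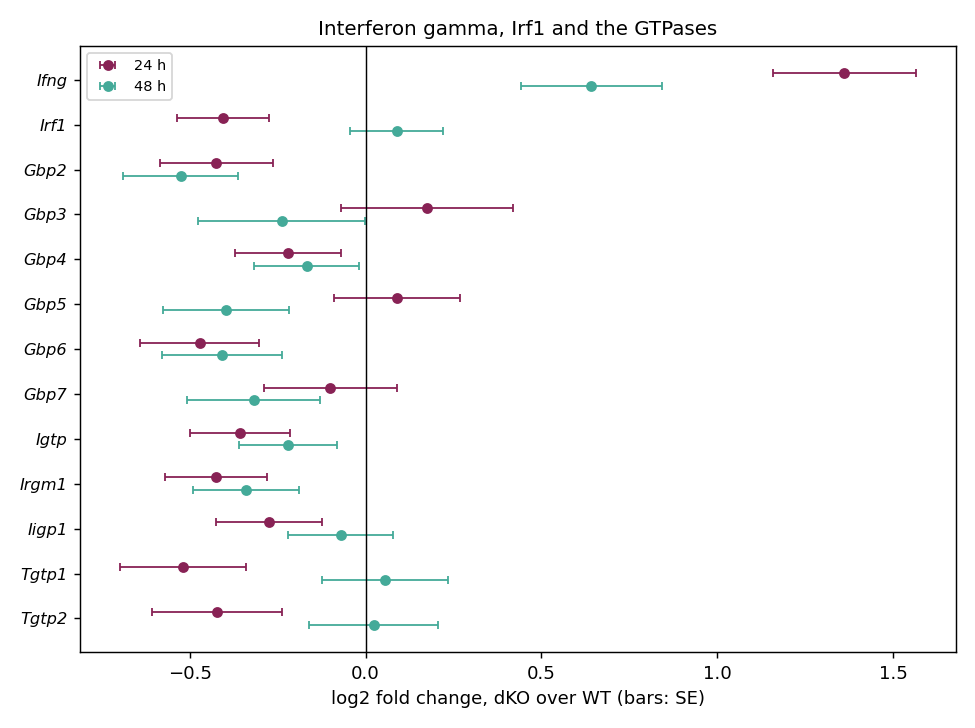
Log2 fold change of the libraries labelled dKO over WT (points, bars are SE) at 24 h (purple) and 48 h (green) for Ifng, Irf1 and the 11 GTPases, from 1 edgeR fit over 8 libraries. Ifng lies at 1.36 and 0.64, while 9 of 11 GTPases lie below 0 at each time.

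The antiviral members also leaned lower at 24 h, but did not all move one way. Of the 25 tested, 18 were negative and 7 positive at 24 h, with a median of -0.29 beside 0.0074 over all tested genes. At 48 h 16 were negative and 9 positive, with a median of -0.10 beside -0.027. With library size alone 12 were negative and 13 positive at 48 h, with a median of 0.07 beside 0.15. In edgeR 0 were called at 24 h and 0 at 48 h, while the unadjusted p was under 0.05 for 2 higher and 4 lower members at 24 h, and for 5 higher and 4 lower at 48 h. Of all tested genes 3.92% were higher and 3.05% lower by that measure at 24 h, and 14% and 19.1% at 48 h. Both antiviral counts were above those shares at 24 h, on few genes, and near them at 48 h. DESeq2 called 0 at either time. Over both times 15 were negative and 10 positive (13 and 12 with library size alone; median -0.12), with 1 called higher, Ifih1, and 2 called lower, Samhd1 and Dtx3l. These 3 did not keep their calls in every fit. Both libraries labelled dKO lay below both WT libraries for 9 of the 34 at 24 h (26.5%, beside 20.6% of all tested genes) and 9 of 34 at 48 h (26.5%, beside 28.6%). This held at both times for 5 of 34, Oas3, Rsad2, Samhd1, Parp9 and Dtx3l (14.7%, beside 9.28%). Ifih1 and Bst2 lay above WT at both times (5.88%, beside 11.7%). The 34 include 9 members left untested for low counts, while the share of all genes is over tested genes alone, so these shares are not alike. All 9 members below WT at 24 h were among the 25 tested, as were all 5 at both times. At 48 h Dhx58 and Oasl2 were not.

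Among the transcription factors, Irf1 was lower at 24 h in both libraries labelled dKO without passing the test. It was at 88.1 and 87.7 CPM in WT and at 63.7 and 69.1 CPM in the libraries labelled dKO at 24 h, and at 47.3 and 50.2 against 52.5 and 51.3 CPM at 48 h. The 24 h value was -0.41 (SE 0.131, edgeR adjusted p = 0.406), and it passed without WT 48 h replicate 1 or 2 (adjusted p = 0.0314 and 0.0312). Stat2, a subunit of the factor that type I interferon activates, was at 8.29 and 6.90 against 4.70 and 7.99 CPM at 24 h and at 5.98 and 7.48 against 7.44 and 5.46 CPM at 48 h. Its groups overlapped at both times (-0.20 over both, SE 0.208). Irf9, the DNA binding subunit of that factor, was at -0.43 at 24 h and 0.28 at 48 h.

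Ifih1, which encodes the RNA sensor MDA5, was the antiviral member called higher. It was at 2.53 and 2.50 CPM in WT against 9.95 and 6.51 CPM at 24 h, and at 1.54 and 3.11 against 5.66 and 5.85 CPM at 48 h. No library of one label reached the range of the other. The log2 fold change was 1.73 at 24 h (SE 0.349, edgeR adjusted p = 0.0901), 1.16 at 48 h (SE 0.336, 0.0538) and 1.45 over both times (SE 0.243, 0.015). The call ended when the first replicate of either label at 24 h, or either dKO 48 h library, was left out (adjusted p = 0.0621 to 0.105). The other sensors were not called in the fit of 8 libraries. Zbp1, a sensor of Z-form nucleic acid that can start cell death, was at 17.4 and 12.04 against 13.9 and 15.1 CPM at 24 h and at 20.3 and 17.5 against 25.3 and 26.9 CPM at 48 h, where the groups separated (0.48, SE 0.196, edgeR adjusted p = 0.127). It passed at 48 h with library size alone (0.0371) and without WT 48 h replicate 1 (0.0168). Ddx58, which encodes RIG-I, was at 1.62 to 5.58 CPM over the 8 libraries with overlapping groups.

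Isg15, the ubiquitin-like protein that antiviral cells attach to others, was low. It was at 2.53 and 1.32 against 3.94 and 3.72 CPM at 24 h and at 1.88 and 0.895 against 1.79 and 2.86 CPM at 48 h. Groups separated at 24 h only, and the value over both times was 0.97 (SE 0.326, edgeR adjusted p = 0.0977). It passed with no filter on low counts (adjusted p = 0.0195) and without WT 48 h replicate 1 (0.00776). Usp18, which removes ISG15 and restrains the type I receptor, was at -0.29 and 0.78.

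Of the effectors that bind or cut RNA, 0 of 5 tested were called between genotypes. Ifit2, which binds viral RNA, was at 20.9 and 16.01 against 15.4 and 18.8 CPM at 24 h and at 13.0 and 14.1 against 14.0 and 12.7 CPM at 48 h, with overlap at both times. Isg20, an exonuclease, was at 3.65 and 2.203 against 5.80 and 6.32 CPM at 24 h (1.03, SE 0.322, edgeR adjusted p = 0.36) and at -0.28 at 48 h. Ifit1, Ifit3 and Oas3 had values from -0.50 to -0.31 over both times.

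Samhd1, an enzyme that depletes the nucleotides viruses need, fell. At 24 h it was at 185 and 148 CPM in WT against 82.6 and 113 CPM in the libraries labelled dKO, and at 48 h at 109 and 138 against 80.4 and 84.1 CPM. The groups did not overlap at either time, and the value over both was -0.68 (SE 0.141, edgeR adjusted p = 0.026). Its call was lost without WT 24 h replicate 1, either dKO 24 h replicate or either dKO 48 h replicate (adjusted p = 0.0713 to 0.155). Rsad2, which encodes viperin, was low and separated at both times, with 1.83 and 1.17 against 0.656 and 0.929 CPM at 24 h and 2.39 and 2.69 against 1.04 and 1.04 CPM at 48 h (-1.13, SE 0.307, edgeR adjusted p = 0.0528). It passed with no filter on low counts (0.0304) and without WT 48 h replicate 1 (0.0137). Its neighbour Cmpk2, a nucleotide kinase, was at -0.94 (SE 0.39). Bst2, which encodes the virus tether tetherin, was at 86.8 and 98.99 against 109 and 115 CPM at 24 h and at 93.3 and 64.04 against 114 and 117 CPM at 48 h (0.41, SE 0.13, edgeR adjusted p = 0.0802). Bst2 passed with library size alone (0.0397), with no filter on low counts (0.0282) and without WT 48 h replicate 1 or 2 (0.000231 and 0.0421).

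Dtx3l, a ubiquitin ligase that works as a pair with PARP9, fell. It was at 50.02 and 49.5 CPM in WT against 35.2 and 32.5 CPM at 24 h, and at 37.1 and 48.1 against 30.5 and 31.8 CPM at 48 h. WT libraries were higher at both times (-0.51, SE 0.114, edgeR adjusted p = 0.0288). The call was lost with library size alone (0.0634) and without any 1 library other than the WT 48 h replicates (adjusted p = 0.0817 to 0.156). Its partner Parp9, whose gene model overlaps that of Dtx3l at one end on the other strand, was at -0.36 (SE 0.134, edgeR adjusted p = 0.126) and passed without WT 48 h replicate 1 (0.00791). Parp14, a larger ADP-ribosyl transferase, was at 28.1 and 21.9 against 17.7 and 23.4 CPM at 24 h and at 14.2 and 36.7 against 17.7 and 14.2 CPM at 48 h. The WT 48 h replicates of Parp14 stood further apart than the genotypes (-0.51, SE 0.261, adjusted p = 0.227), and it passed with no filter on low counts (0.0112) and without WT 48 h replicate 1 (-0.78, 0.000388). Trim30a, a TRIM family member, was at -0.35 (SE 0.146) and passed without WT 48 h replicate 1 (adjusted p = 0.0174).

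Ifi35, a partner of the STAT regulator NMI, was at 45.8 and 47.4 against 41.9 and 43.7 CPM at 24 h and at 48.2 and 45.1 against 61.2 and 60.8 CPM at 48 h. The groups separated at both times in opposite directions (-0.12 and 0.39), and the 48 h value passed with library size alone (adjusted p = 0.0331) and without WT 48 h replicate 1 (0.00706). Rtp4, a receptor chaperone that inhibits viral replication, was at 2.11 and 1.76 against 2.95 and 2.60 CPM at 24 h and at 0.342 and 1.26 against 0.595 and 1.30 CPM at 48 h. At 48 h its groups overlapped. Ifi27 and Xaf1 were at 0.25 and -0.12 over both times.

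The 9 antiviral members left untested were Irf7, Dhx58, Oas1a, Oas2, Oasl1, Oasl2, Mx1, Mx2 and Ifi44. They had 4 to 65 counts in total over the 8 libraries and at most 1.94 CPM in any 1 library. They include IRF7, the factor that amplifies type I interferon, and the MX GTPases and OAS synthetases, which are classic targets of it. Mx1 was at 0.422 and 0.587 CPM in WT against 0.219 and 0.558 CPM at 24 h, and at 0.683 and 0.948 against 1.94 and 1.17 CPM at 48 h, on 2 to 18 counts per library. Its libraries did not overlap between genotypes at 48 h or between times in either genotype. Each fit without 1 library tested 27 or 28 antiviral members, against 25 in the fit of 8 libraries. Mx1, named after its values were seen, was among those tested without WT 48 h replicate 1 or 2. Its highest levels were in the libraries labelled dKO at 48 h, so it passed through the group where it is high. Its log2 fold change from 24 to 48 h in the libraries labelled dKO was 2.12 without WT 48 h replicate 1 and 2.10 without replicate 2. No test result is read from it.

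**Figure D3:**
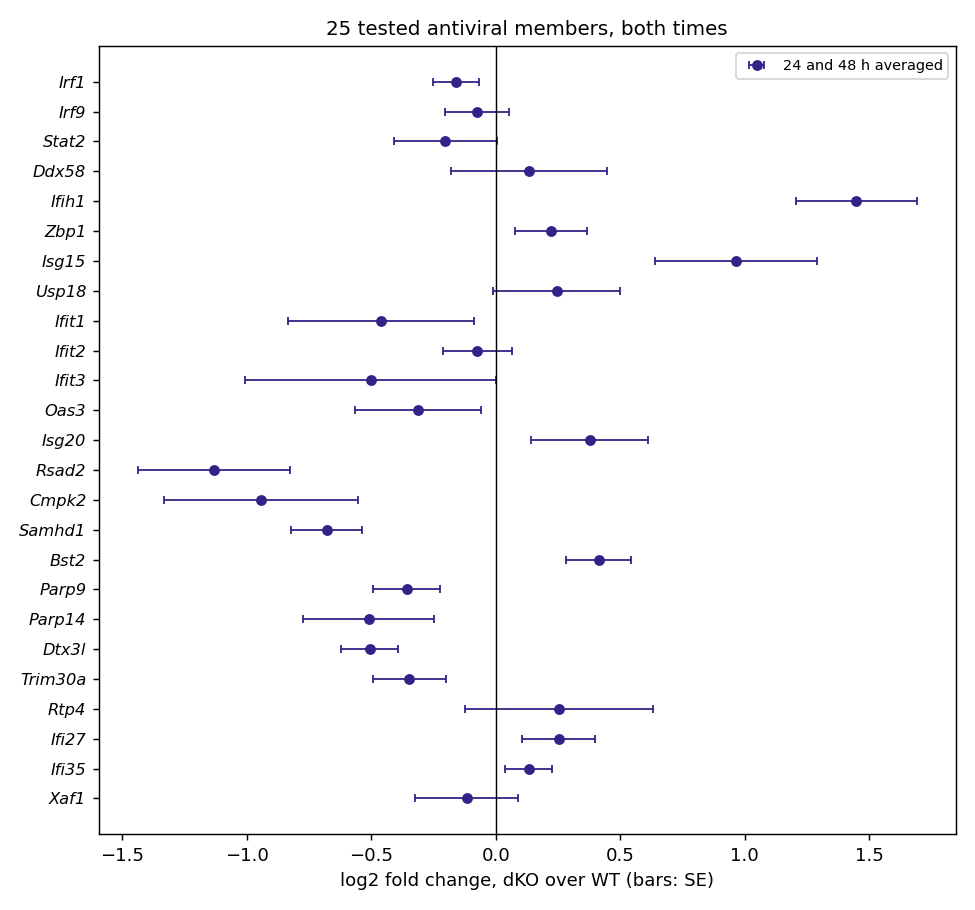
Log2 fold change of the libraries labelled dKO over WT, averaged over 24 and 48 h (points, bars are SE), for the 25 tested antiviral members in order of their roles. Ifih1 lies at 1.45, Samhd1 at -0.68 and Dtx3l at -0.51, and 15 of 25 points lie below 0.

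Whether the genotype difference itself changed from 24 to 48 h was tested as an interaction. In edgeR 0 of 36 members were called and 0% of all genes, with 3 antiviral members higher (Irf1, Irf9 and Ifi35, named after their values were seen), 1 lower (Isg20) and 1 GTPase higher (Tgtp1) at an unadjusted p under 0.05, beside 3.42% of all genes higher and 8.94% lower. DESeq2 called 0. The values were 0.49 for Irf1 (SE 0.186), 0.71 for Irf9 (SE 0.256), 0.51 for Ifi35 (SE 0.186), -1.31 for Isg20 (SE 0.464) and 0.57 for Tgtp1 (SE 0.254). Without WT 48 h replicate 1, 5 of 28 antiviral members (Irf1, Isg20, Bst2, Parp14 and Ifi35) and 3 of 11 GTPases (Gbp5, Tgtp1 and Tgtp2) were called, beside 26.1% of all genes.

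**Figure D4:**
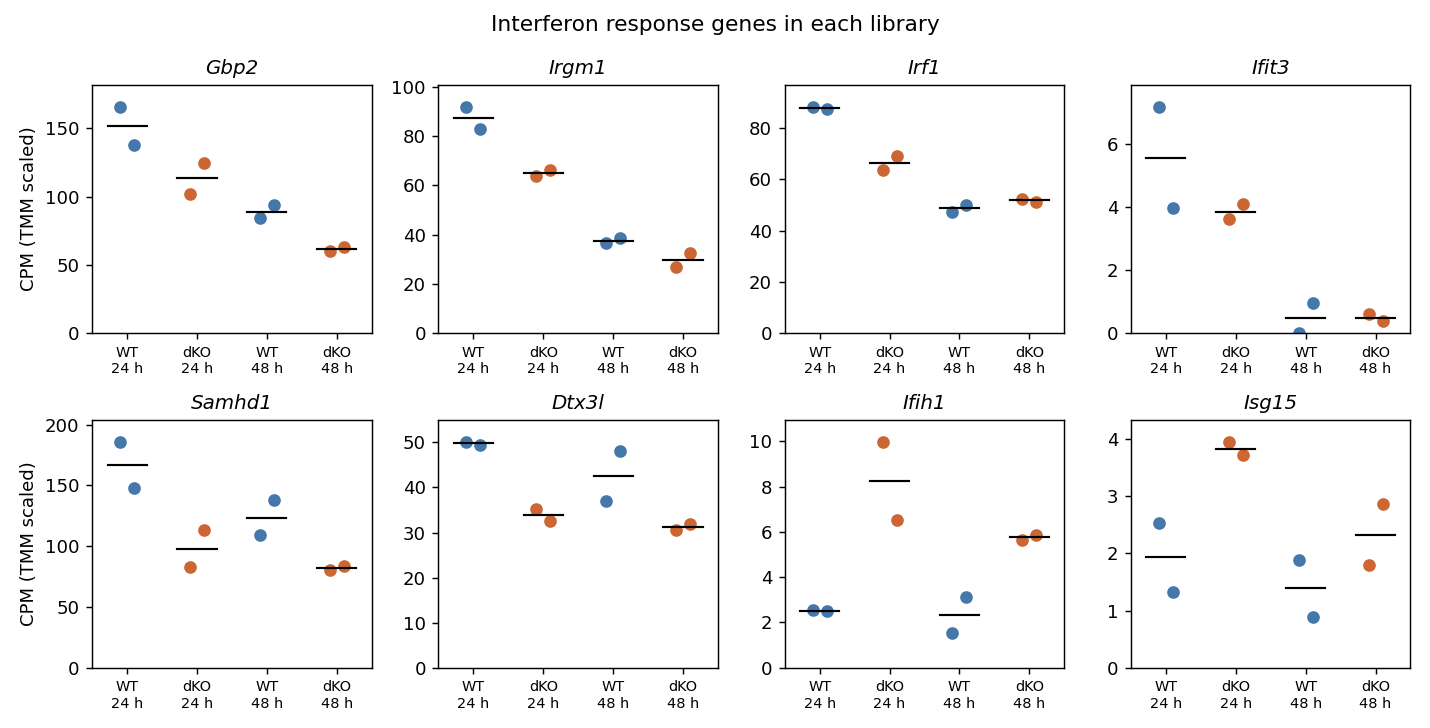
CPM (TMM scaled, linear axes from 0) of 8 members in each of the 8 libraries; points are libraries (WT blue, dKO orange), bars are the mean of the 2 libraries of a group. Gbp2, Irgm1, Irf1 and Ifit3 are lower at 48 h than at 24 h, Samhd1 and Dtx3l are lower and Ifih1 higher in the libraries labelled dKO.

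From 24 to 48 h of culture, Gbp2 and Irgm1 fell in both genotypes, and 0 of 36 members were called higher in either in the edgeR fit of 8 libraries. In WT 2 of 25 tested antiviral members (Irf1 and Ifit3) and 2 of 11 GTPases (Gbp2 and Irgm1) were called lower, beside 3.5% of all genes called lower and 7.87% called higher. In the libraries labelled dKO 0 antiviral members and 2 GTPases, again Gbp2 and Irgm1, were called lower, beside 1.88% lower and 1.76% higher. The unadjusted p there was under 0.05 for 2 higher antiviral members, Zbp1 and Ifi35 (named after their values were seen), and for 5 lower, beside 11.1% of all genes higher and 12.2% lower. In WT it was under 0.05 for 0 higher and 6 lower antiviral members, beside 14% and 10.6% of all genes. Among the GTPases it was under 0.05 for 5 lower in WT, 3 lower in the libraries labelled dKO and 0 higher in either. DESeq2 called Ifit3 lower and Zbp1 higher (0.89, adjusted p = 0.0444) in the libraries labelled dKO. Zbp1 was at 0.85 in edgeR (SE 0.204, adjusted p = 0.0517), and passed with no filter on low counts (0.00301), in a fit of the dKO libraries alone (3.96e-06) and without any 1 WT library (0.00232 to 0.0459). Ifi35 was at 0.51 (SE 0.132, edgeR adjusted p = 0.0676), and passed in the fit of the dKO libraries alone (3.06e-05) and without WT 48 h replicate 1 or 2 (0.00206 in each). The fit of the dKO libraries alone called 37.3% of all genes. In WT, Parp14 was called higher without WT 48 h replicate 1 (0.57, edgeR adjusted p = 0.0246) and lower without replicate 2 (-0.83, 0.0235). With no overlap between times in either genotype, 48 h lay below 24 h for Gbp2, Gbp6 and Irgm1 among the GTPases and for Irf1, Ifit1, Ifit2, Ifit3, Dtx3l and Rtp4 among the antiviral members, beside 12.9% of all genes. Library size alone moved the median of all genes to -0.36 in WT and -0.18 in the libraries labelled dKO.

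Irgm1 fell by 1.21 on the log2 scale in WT (SE 0.147, edgeR adjusted p = 0.00226) and by 1.13 in the libraries labelled dKO (SE 0.151, 0.0045). The WT call was lost in a fit of the WT libraries alone (0.0657), and the dKO call without any 1 of the dKO libraries (0.0618 to 0.12). Gbp2 fell by 0.77 (SE 0.162, edgeR adjusted p = 0.0131) and by 0.87 (SE 0.165, 0.0224). Its WT call was lost in a fit of the WT libraries alone (0.124) and without WT 24 h replicate 1 (0.105), and its dKO call without any 1 of the dKO libraries (0.114 to 0.251). Igtp, in contrast, had values of 0.04 and 0.18, and Gbp4 0.05 and 0.10.

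Irf1 fell by 0.85 in WT (SE 0.131, edgeR adjusted p = 0.00273) and had a value of -0.35 in the libraries labelled dKO (SE 0.132, 0.157). The WT call of Irf1 was lost in a fit of the WT libraries alone (0.0708), and the dKO value passed in the fit of those libraries alone (0.00246) and without WT 48 h replicate 1 or 2 (0.0264 and 0.0261). The difference between those 2 changes is the interaction above, which was not called. Ifit3, which binds IFIT1 on viral RNA, had 51 and 27 counts in WT at 24 h and 0 and 18 at 48 h, or 7.17 and 3.97 against 0 and 0.948 CPM. In the libraries labelled dKO it was at 3.61 and 4.09 against 0.595 and 0.39 CPM. The log2 fold changes were -3.02 (SE 0.587, edgeR adjusted p = 0.00855) and -2.94 (SE 0.719, 0.0573), and the WT call was lost without WT 24 h replicate 1 (0.113) and in a fit of the WT libraries alone (0.0712). The dKO value passed with library size alone (0.0185), no filter on low counts (2.35e-06), DESeq2 (0.016), a fit of those libraries alone (1.41e-06) and without WT 48 h replicate 1 or 2 (0.00169 and 0.00167). Reading frames of Ifit3 and Ifit3b are 99.1% identical, and Ifit3b had a value of -2.60 in WT (SE 0.604, adjusted p = 0.0209), a call lost without WT 24 h replicate 1 (0.163) or 2 (0.101) and in a fit of the WT libraries alone (0.0657). Ifit1 was at -1.31 and -1.11 and Rtp4 at -0.97 and -1.52 without a call, and Ifng at -0.13 in WT and -0.85 in the libraries labelled dKO (edgeR adjusted p = 0.0505).

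**Figure D5:**
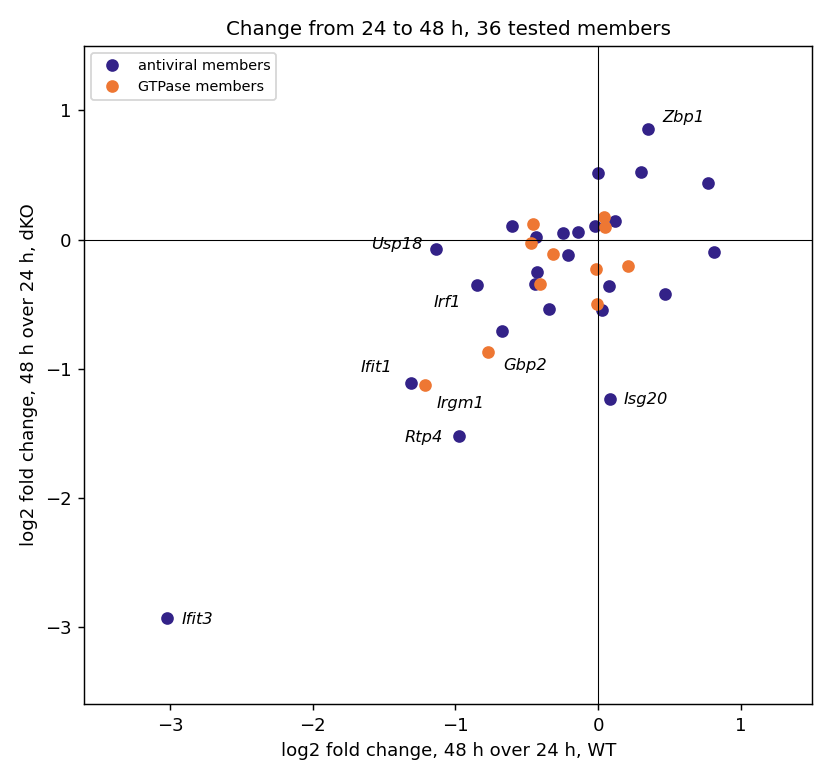
Log2 fold change of 48 h over 24 h in WT (horizontal axis) and in the libraries labelled dKO (vertical axis) for the 36 tested members, antiviral members in blue and GTPases in orange. Ifit3 lies at -3.02 and -2.94, and Irgm1 and Gbp2 lie in the lower left with values from -1.21 to -0.77.

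Class I presentation genes that interferon also induces were a set of 15, all tested. Over both times edgeR called 0 of them, the median was 0.23, and 4 were on the higher side and 0 on the lower with an unadjusted p under 0.05, beside 12.4% and 15.5% of all genes. At 24 h 6 were positive and 9 negative, with 0 called. At 48 h 12 were positive and 3 negative (median 0.40). An unadjusted p under 0.05 in edgeR was then reached by 8 on the higher side and 0 on the lower, beside 14% and 19.1% of all genes. The 2 called higher at 48 h, beside 3.19% of all genes, were the proteasome subunit genes Psmb8 (0.55, SE 0.155, edgeR adjusted p = 0.0498) and Psmb9 (0.63, SE 0.178, adjusted p = 0.0499). Psmb8 was at 400.5 and 349 CPM in WT against 549 and 549 CPM. Both calls were at the edge of the threshold. They were lost with RLE scaling (0.0516 and 0.0515), a mean of at least 50 counts (0.0576 and 0.0641), the replicate block (0.0676 and 0.0574) and a fit of the 48 h libraries alone (0.127 and 0.163). Leaving out WT 48 h replicate 2 or any 1 dKO library also ended both (adjusted p = 0.0672 to 0.276), and leaving out either WT 24 h library ended that of Psmb9 (0.0798 and 0.0842).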

How the data were processed

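The deposited table holds the raw read count of each gene symbol in 8 libraries. Per the submitters' processing notes, cutadapt 1.18, Bowtie2 2.2.5 and mm10 were used; the counting program, annotation, strand rule and whether all exons were counted are not given in the sources that were used. An unnamed last entry equal to the column total (50% of each column) was left out, and 0 per-sample columns were unused. Differences were tested by quasi-likelihood in edgeR 4.0.16 (R 4.3.3), in 1 fit with a mean per group, TMM scaling, filterByExpr with a minimum count of 10, Benjamini-Hochberg adjustment over 12742 genes, two-sided, called at adjusted p below 0.05. SE is a fold change on the log2 scale, without its sign, divided by the root of F. DESeq2 1.42.0, other scalings and filters, a replicate block, fits of the compared groups alone and fits without each library were alternatives. The procedure was also run on counts simulated from its own fitted model, which cannot show how well that model holds for these libraries. The p-values reflect variation among these libraries alone, which may be technical, with 4 residual degrees of freedom. Members and lists were chosen with earlier results of these data known. Values per library are given for members called in any of 6 comparisons and, in each role, for the member with the highest mean count and that with the largest change over both times, and for others where stated. Positions are GENCODE M21 genes or RefSeq promoter windows, both GRCm38. Identities are of longest open reading frames (Biopython 1.88). Values of some single genes are left out.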

Additional observations from a re-analysis of the deposited data

How the results depend on the processing

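Over the 8 fits that leave out 1 library, the number of called members ran from 0 to 4 for antiviral members and 0 to 3 for GTPases at 24 h, 0 to 12 and 0 to 5 at 48 h, 0 to 9 and 0 to 6 over both times, 0 to 5 and 0 to 3 for the interaction, 1 to 8 and 1 to 5 for time in WT, and 0 to 8 and 0 to 3 for time in the libraries labelled dKO. The fit without WT 48 h replicate 1, which gave the highest antiviral numbers at 48 h, over both times and for the interaction, called 49.2% of all 13248 genes at 48 h, 42.3% over both times and 26.1% for the interaction, and the fit without WT 48 h replicate 2 called 8.78%, 11.9% and 0.159%. At 24 h and for time in either genotype, the highest numbers came from the fits without WT 48 h replicate 1 or 2. In these comparisons both fits also called a larger share of all genes than the fit of 8 libraries did. Their high numbers are therefore not read as particular to the members. With no filter on low counts the antiviral number was 2 at 24 h, 4 at 48 h, 7 over both times and 4 for time in dKO, and 3 GTPases were called over both times. Of all genes that setting called 0.896%, 12.9%, 9.85% and 7.18% in these comparisons. With library size alone it was 5 antiviral members at 48 h, 0 GTPases over both times, 11 and 6 for time in WT and 2 antiviral members for time in dKO. Of all genes that scaling called 19.9%, 10.1%, 26.4% and 5.8% in these comparisons. In fits of the groups compared alone it was 2 antiviral members at 24 h, 0 and 0 for time in WT, and 10 and 4 for time in dKO. Of all genes those fits called 1.49%, 0.251% and 37.3%. With a mean of at least 50 counts 3 GTPases were called over both times (9.04% of all genes) and 1 antiviral member for time in WT (13.2%). DESeq2 called 2 antiviral members for time in dKO, beside 5.19% of all genes. RLE scaling moved no number of called members by over 1.5 times. The cause of these moves was not tested, except that fits of groups alone use fewer libraries.

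With the replicate block the numbers of called members stayed at 3 and 1 over both times, 2 and 2 for time in WT and 0 and 2 for time in dKO. Same-numbered replicates deviated together at r = -0.076 to 0.172. With 2 libraries a group, these values cannot decide whether same-numbered samples came from the same animal. The block ended the calls of Ifnar2, Psmb8 and Psmb9 at 48 h and changed no other call of a named gene.

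Of 726 fold changes of named genes recomputed under alternatives, 547 kept their direction and side of the threshold, 114 lost a call, 57 gained one and 8 changed sign. Of those 8, 5 were uncalled genotype values over both times: Ifit2 at 0.013 with library size alone, 0.037 without WT 24 h replicate 1 and 0.0011 without dKO 24 h replicate 1, Ifit3 at 2.12 without WT 48 h replicate 2, and Rtp4 at -0.094 without dKO 48 h replicate 2. Over the fits without 1 library Ifit2 ran from -0.17 to 0.037, Ifit3 from -0.76 to 2.12 and Rtp4 from -0.094 to 0.99. For the 2.12 of Ifit3, the only WT 48 h library was replicate 1, with 0 counts of Ifit3. The size of that value is therefore not read. The other 3 were time values of Parp14 in WT, 0.075 in the fit of 8 libraries, at -0.27 with library size alone, -0.13 without WT 24 h replicate 2 and -0.83 without WT 48 h replicate 2, with a range from -0.83 to 0.57 over the fits without 1 library. Ifih1 could not be tested with a mean of at least 50 counts. With 2 libraries a group and members such as Isg15, Rsad2 and Rtp4 under 4 CPM in every library, small differences in these genes are limited by depth.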

Other observations

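Outside the members, 50 other genes of the antiviral programme were looked for and 44 tested. With both times averaged, the libraries labelled dKO had 2 of them called higher and 5 called lower, beside 2.28% and 5.52% of all genes. Ifitm2, which blocks virus entry, rose from 2.39 and 3.67 CPM to 16.2 and 14.3 CPM at 24 h and from 3.76 and 2.48 to 13.1 and 10.9 CPM at 48 h (2.18 over both times, SE 0.196, edgeR adjusted p = 0.00045). Ifi209 fell from 22.8 and 18.5 to 4.81 and 6.51 CPM at 24 h and from 3.59 and 8.005 to 2.08 and 2.08 CPM at 48 h (-1.74, SE 0.253, adjusted p = 0.00819). Mndal fell (-0.92, SE 0.144, adjusted p = 0.0122), with 40.6 and 28.9 against 16.1 and 20.07 CPM at 24 h.

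The called genes of the Ifi200 family, which encode DNA binding proteins, lie close together on chromosome 1. They moved in both directions over both times (named after their values were seen). Ifi214 (from 173519717, GRCm38) was at -1.17, Ifi209 (from 173630917) at -1.74 and Ifi204 (from 173747293) at 1.92. Mndal (from 173849126) was at -0.92 and Ifi203 (from 173920407) at -0.97. The gene models of Mndal and Ifi203 overlap on the same strand, so counts could be split between them. All 5 passed in edgeR (adjusted p = 0.00819 to 0.026). Leaving out dKO 24 h replicate 1 or either dKO 48 h library ended each of these calls (0.0657 to 0.123). Those of Ifi203, Ifi204 and Ifi214 also ended without WT 24 h replicate 1 (0.0531 to 0.0992), those of Ifi204 and Ifi214 without dKO 24 h replicate 2 (0.0574 and 0.118), and that of Ifi214 without WT 48 h replicate 2 (0.0805). Fcgr3, a myeloid marker that starts at 171051174 on the same chromosome, had 0 counts in each of the 4 WT libraries and 15, 3, 15 and 12 counts in those labelled dKO. Cd68, another myeloid marker, was at 1.55 and 1.32 CPM in WT against 2.41 and 2.04 CPM at 24 h, and at 1.03 and 0.421 against 1.04 and 1.69 CPM at 48 h (0.92 over both times, SE 0.351, edgeR adjusted p = 0.129). Lyz2 was at 0 in all 8 libraries, Csf1r and Itgam had at most 1.03 CPM, and Cd14 was at 3.06 to 4.09 CPM at 24 h, 12.3 and 10.01 CPM in WT at 48 h and 4.91 and 4.55 CPM in the libraries labelled dKO at 48 h. The 6 myeloid markers in the table summed to 5.62 and 4.85 CPM in WT against 8.09 and 6.88 CPM at 24 h, and to 14.5 and 11.3 against 8.49 and 8.31 CPM at 48 h. Their part in the genotype values was not tested.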
